A study of Saccharomyces cerevisiae with 21 samples.

Results

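The comparison set budding yeast that received heat stress together with ISP1 against untreated yeast in the same medium. Its arrays were chosen by their titles, as the 3 arrays of YPD with heat and ISP1 and the 3 YPD control arrays, which are 6 of the 21 arrays of the study. The change in transcript level between these groups, called the net change here, was described across 5449 Saccharomyces cerevisiae genes. The study placed 3 Affymetrix yeast arrays in each of 7 groups, of which 4 were grown in YPD (yeast extract with peptone and dextrose, a rich medium) and the others in synthetic complete medium. ISP1 is myriocin, per the design text. The treatment with heat and ISP1 lasted 45 min, and the heat and ISP1 groups that serve below as references were treated for 45 min each. The labels name no strain, temperature, ISP1 dose or vehicle, and list no treatment for the control. They do not say whether the replicates came from separate cultures, so a p-value here reflects no more than the spread among these arrays, whose number limits the precision.

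Heat unfolds proteins, and yeast answers through the heat shock factor Hsf1, which drives chaperone genes, and through the paired factors Msn2 and Msn4, which drive a general stress programme. The same shift is known to lower the transcripts that build ribosomes. Myriocin blocks serine palmitoyltransferase, the enzyme that makes the first sphingoid base, from which ceramides and the complex sphingolipids of the plasma membrane are built. Sphingoid bases are known to rise in heated yeast and to act in its stress response. Cells given both treatments would then meet heat with that synthesis inhibited, which these arrays do not measure.

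Values are log2 signal of the deposited table, so that a difference of 1 is a doubling. Genes were called at an adjusted p under 0.05 in limma's test across all genes, with Benjamini-Hochberg adjustment. With both treatments 4486 of 5449 genes were called, or 82.3%. Of these, 2280 rose (41.8% of all genes) and 2206 fell (40.5%). The change reached 2-fold in 846 genes that rose and 845 that fell, each 15.5% of the genes. At least 4-fold there were 282 rises and 295 falls, at least 8-fold 122 rises and 62 falls, and at least 16-fold 41 rises and 5 falls, so that rises outnumbered falls from 8-fold upward. The median change over all genes was 0.03, and the middle portion of genes lay between -0.62 and 0.62 (quartiles). In 4605 genes, 84.5%, the 3 arrays with both treatments did not overlap the 3 control arrays.

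**Figure D1:**
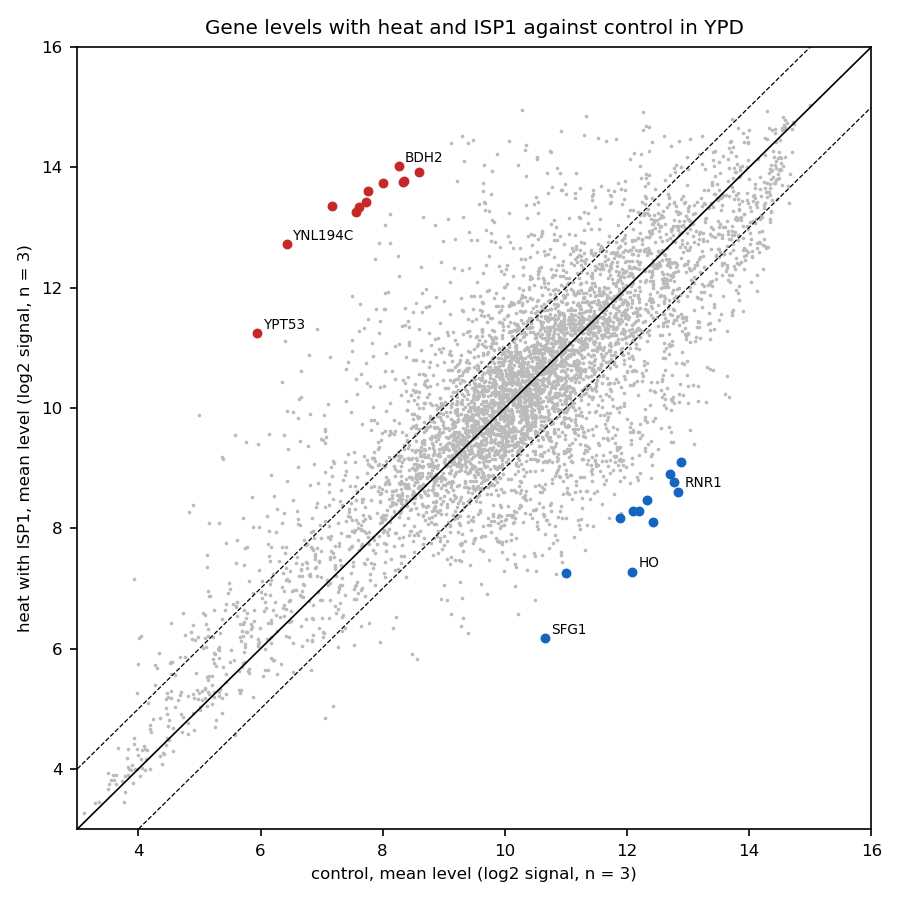
Mean level of each gene on the 3 arrays with heat and ISP1 (vertical axis, log2 signal) against its mean on the 3 control arrays (horizontal axis, log2 signal), 1 point per gene, with coloured points for the 12 largest rises and 12 largest falls and dashed lines at a 2-fold change. The 846 genes that rose and the 845 that fell by at least 2-fold lie on either side of the diagonal.

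Across genes, array 1 of each YPD group correlated less with the other arrays of its group (r between 0.993 and 0.996) than those did with each other (0.997 to 0.998). The array medians lay at 10.30 to 10.31 with both treatments and at 10.32 to 10.33 in the control. Control array 1 stood apart in stress genes: the median level of the 34 general stress genes was 10.29 on it and 9.71 and 9.62 on the other control arrays, and without it that list's median change was 3.55 in place of 3.31. Array 1 of heat with ISP1 had a lower median over the 59 amino acid synthesis genes, 11.61 against 12.02 and 12.14, and control array 1 was likewise the lowest of its group, at 12.25 against 12.45 and 12.55. Without control array 1 the count of called genes was 4376, and without array 1 of heat with ISP1 it was 4392. The spiked poly-A controls read 8.19 ± 0.37 (SD, n = 3) with both treatments and 7.47 ± 0.11 in the control, a difference beyond their spread. The 3′ minus 5′ difference, read on 7 genes, was 0.10 ± 0.03 with both treatments against 0.75 ± 0.21 in the control for TDH1, whose own level rose by 2.00, and 1.80 ± 0.07 against 1.54 ± 0.17 for SPT15. For ACT1 it was 0.52 ± 0.03 against 0.56 ± 0.04, and for SRB4, RIP1, EAF5 and WBP1 the ranges of the groups overlapped. The part of these differences in the results was not tested.

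The largest rise was that of YNL194C, which encodes a membrane protein of the Sur7 family found in eisosomes. Its levels were 6.85, 6.28 and 6.16 on the control arrays and 13.02, 12.62 and 12.54 with heat and ISP1. The groups were far apart, and the rise was 6.30 ± 0.18 (SE, n = 3 per group), or 78.7-fold, with a limma adjusted p of 5.44e-16. PHM7, a membrane protein of unknown role, read 7.46, 7.15 and 6.89 in the control and 13.45, 13.32 and 13.28 with both treatments. It rose 72.5-fold, and its treated arrays lay within a narrow band well above all control arrays. ALD3, a cytosolic aldehyde dehydrogenase, read 8.10, 7.53 and 7.64 in the control and 13.47, 13.68 and 13.69 with both treatments, a rise of 57.9-fold in which no array of one group came near the other.

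The other 9 of the 12 largest rises spanned 39.2-fold to 54.1-fold. They included BDH2, a putative dehydrogenase of the butanediol type (5.76 ± 0.18), HXT5, a hexose transporter made by slow-growing cells (5.74 ± 0.18), and TKL2, a minor transketolase of the pentose phosphate pathway (5.72 ± 0.24). FMP45, a second member of the Sur7 family, rose by 5.71 ± 0.11, and RTN2, a reticulon of the endoplasmic reticulum membrane, by 5.68 ± 0.10. TMA10, which associates with ribosomes (5.43 ± 0.22), SOL4, a 6-phosphogluconolactonase (5.43 ± 0.12), EGO4 (5.33 ± 0.10) and YPT53, a small GTPase of the endosome (5.29 ± 0.16), completed the set. In all of them the treated arrays lay above all control arrays, by the rule that chose them.

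HO fell the most; it encodes the endonuclease of mating-type switching and is transcribed late in G1. HO read 12.04, 12.19 and 12.04 in the control and 7.39, 7.22 and 7.22 with heat and ISP1. The groups did not overlap, and the fall was 28.2-fold (log2 -4.82 ± 0.10, limma adjusted p 1.74e-17). RNR1, the large subunit of ribonucleotide reductase, read 12.81, 12.78 and 12.93 in the control and 8.77, 8.55 and 8.50 with both treatments. It fell 18.8-fold, and every treated array lay far below every control array. SFG1, a regulator of filamentous growth, fell by 4.49, TOS6, a cell wall protein, by 4.31 while INA1, a membrane protein of unknown role, fell 16.1-fold.

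Ribosome assembly genes made up several of the other large falls. KRE33, which acetylates ribosomal RNA, fell by 3.90, NOP13 by 3.82, the helicases DBP2 and DHR2 by 3.81 and 3.75, and MTR4, a helicase of the nuclear exosome, by 3.71. PHO3, an acid phosphatase, and AAH1, adenine deaminase, fell by 3.87 and 3.79. All 12 of the largest falls were at least 13.1-fold.

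**Figure D2:**
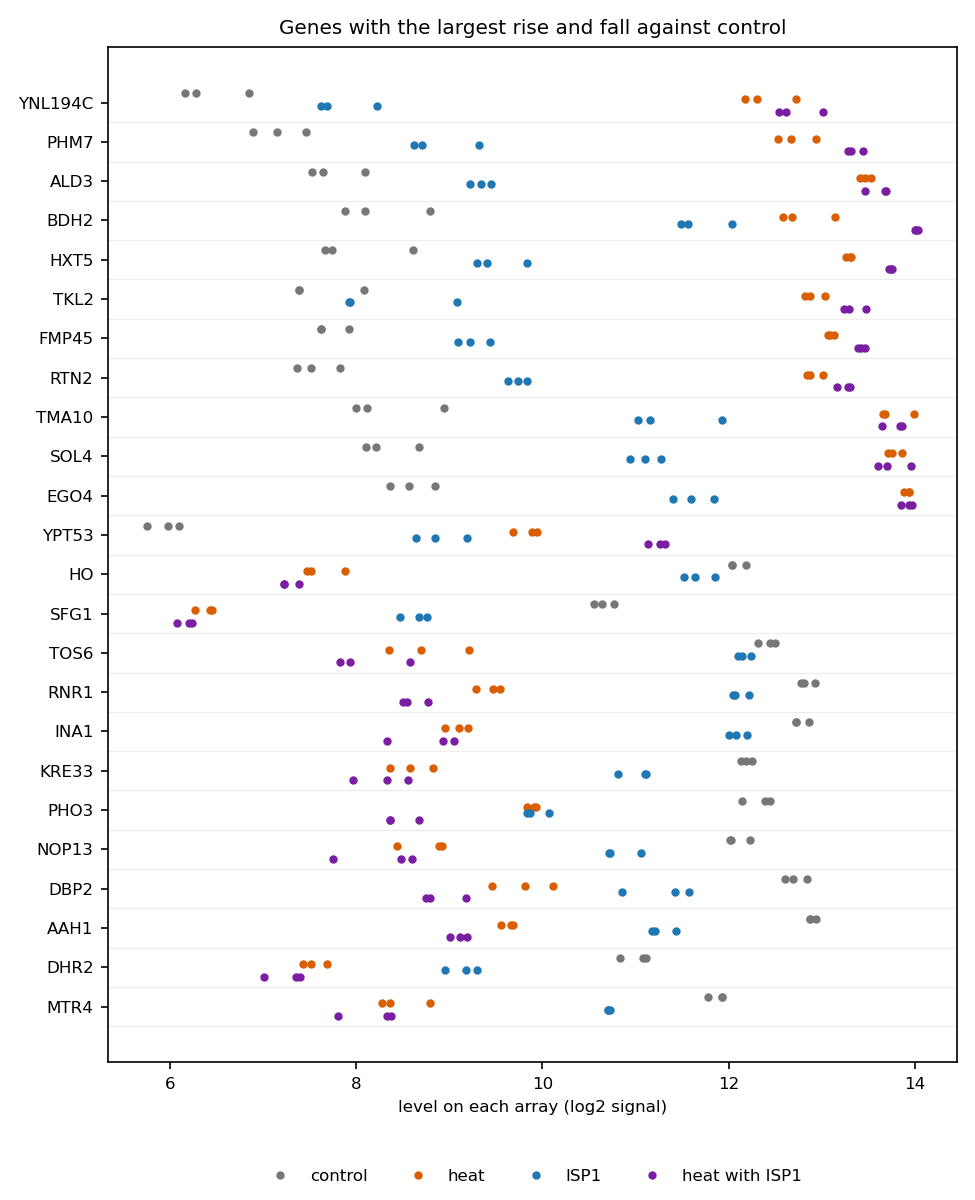
Level on each array (horizontal axis, log2 signal) of the 12 genes with the largest rise and the 12 with the largest fall, with 1 symbol per array for the control, heat, ISP1 and heat with ISP1 groups. The YNL194C arrays with both treatments sit between 12.54 and 13.02 and its control arrays between 6.16 and 6.85, while those of HO sit between 7.22 and 7.39 against 12.04 to 12.19.

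Chaperone genes rose with both treatments: 31 of 33 heat shock genes were called higher, against 41.8% of all genes, and their median change was 1.81 against 0.03 over all genes. The shares of all genes, 41.8% higher and 40.5% lower, also stand beside the list counts below that do not repeat them. HSP30, a membrane protein that restrains the plasma membrane proton pump, read 9.66, 9.13 and 9.12 in the control and 14.49, 14.52 and 14.57 with both treatments. It rose 37.4-fold, with the treated arrays nearly equal. SSA4, a stress-induced Hsp70, read 10.60, 10.21 and 10.04 in the control and 14.99, 14.96 and 14.90 with both treatments, and rose 25.4-fold. SSE2, a nucleotide exchange factor of Hsp70, rose by 4.09 ± 0.10, SSA3 by 3.97 ± 0.10, the small heat shock protein HSP26 by 3.52 ± 0.22 and the disaggregase HSP104 by 2.10 ± 0.07. The exceptions were SSB1 (-0.69) and SSB2 (-1.92), the Hsp70 proteins that bind new chains at the ribosome, which fell. The list's median was 1.90 with heat alone and -0.08 with ISP1 alone, comparisons that use the same control arrays.

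All 34 general stress genes rose, beside 41.8% of all genes, with a median change of 3.31. The rise was at least 2-fold in 33 of them, beside 15.5% of all genes. The members of this and the other lists were chosen with earlier results of these data known, so such counts are not independent of the data. Beside PHM7, ALD3, HXT5, TKL2, RTN2 and SOL4, this list held SPI1, a cell wall protein (5.29 ± 0.14), and CTT1, cytosolic catalase. CTT1 read 9.83, 9.38 and 9.22 in the control and 14.44, 14.49 and 14.43 with both treatments, so that the groups were widely separated, and it rose 31.5-fold. The list's median change was 2.83 with heat alone and 1.56 with ISP1 alone. The level medians over its genes were 13.83 to 13.91 on the arrays with both treatments and 13.73 to 13.80 on the heat arrays.

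Reserve carbohydrate genes rose throughout, 9 of 9 for trehalose and 12 of 12 for glycogen, with median changes of 2.65 and 3.18. Without control array 1 these medians were 2.77 and 3.40. TSL1, a subunit of trehalose synthase, read 11.70, 11.14 and 11.03 in the control and 14.60, 14.47 and 14.54 with both treatments, and rose 9.49-fold with no overlap. GPH1, glycogen phosphorylase, rose 23.7-fold, PGM2, phosphoglucomutase, by 4.38 ± 0.10, and GIP2, which targets a phosphatase to glycogen synthase, by 4.71 ± 0.18. NTH1, a trehalase that breaks the sugar down, also rose, by 2.90 ± 0.06.

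Protein quality control and turnover rose less steeply. All 34 proteasome genes rose, with changes from 0.31 to 1.24, the highest that of RPN4, the activator of proteasome genes. Of 17 genes for folding in the endoplasmic reticulum, 13 rose and 1 (CNE1) fell, led by MPD1, a disulfide isomerase (2.31 ± 0.07), and ERO1, its oxidase (2.11 ± 0.05). Of 22 genes of oxidative defence 19 rose and 2, TRX1 (-0.37) and GPX2 (-1.21), fell. TSA2, a peroxiredoxin, rose by 4.63 ± 0.09.

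Autophagy and vacuolar degradation genes rose in 26 of 28 cases, with a median change of 1.53. ATG8, whose protein coats the autophagosome membrane, read 8.78, 8.60 and 8.56 in the control and 11.98, 11.91 and 11.86 with both treatments. The groups did not overlap and the rise was 9.66-fold. The vacuolar mannosidase AMS1 rose by 3.84 ± 0.13, the aminopeptidase APE1 by 2.99 ± 0.05 and the protease PRB1 by 2.69 ± 0.07. ATG10, which helps attach Atg12 to Atg5, fell (-0.53).

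Every one of the 81 ribosome biogenesis genes fell, by at least 1.53, against 40.5% of all genes that fell. Their median change was -2.64, or -2.21 with heat alone and -1.02 with ISP1 alone. DBP2 read 12.61, 12.69 and 12.84 in the control and 8.79, 8.75 and 9.18 with both treatments, with no overlap, a change of -3.81 ± 0.17. RNA polymerase I and III genes fell in 30 of 36 cases. RPA190, the largest subunit of polymerase I, changed by -3.40 ± 0.09 and RPA135 by -3.19 ± 0.07. The 4 polymerase genes that rose included MAF1, which represses polymerase III.

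The products that carry out translation fell as well. Of 127 cytosolic ribosomal protein genes, 125 fell and 1, RPL15B (0.90), rose, with a median change of -0.96, and near-identical paralogs can share probes. Translation factors fell in 29 of 34 cases, led by TIF4631, the scaffold eIF4G (-2.64 ± 0.06), while HEF3, a translation elongation factor paralog, rose (1.58). Of 20 tRNA synthetase genes 19 fell, with ALA1 at -1.75 ± 0.05. The 64 genes of the mitochondrial ribosome did not share this course: 15 rose and 17 fell, beside 41.8% and 40.5% of all genes. The list's median change was 0.00.

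**Figure D3:**
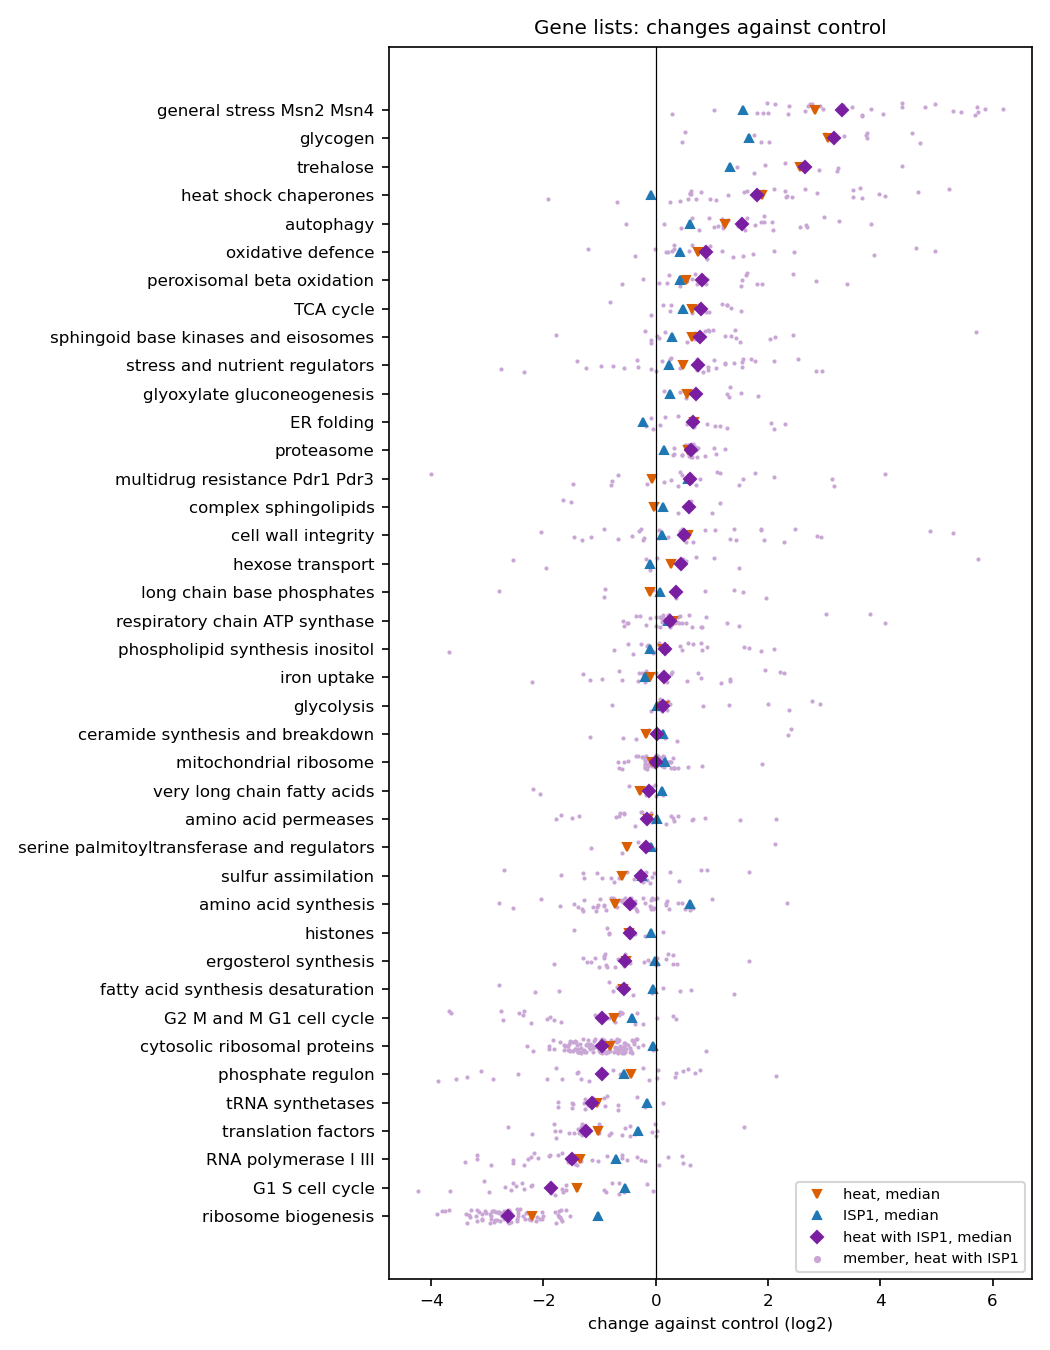
Change against control (horizontal axis, log2) for each gene list other than those of mating type and sporulation, with 1 small point per member for heat with ISP1 and larger symbols for the list medians of heat, ISP1 and heat with ISP1. The 81 ribosome biogenesis members all lie below 0 and the 34 general stress members all lie above it.

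Genes of the cell cycle fell together. Of 30 G1/S genes, 29 fell and none rose, with a median change of -1.86. CLN2, a G1 cyclin, read 10.43, 10.46 and 10.60 in the control and 7.87, 7.30 and 7.43 with both treatments, a 7.82-fold fall with no overlap. CLB6, an S-phase cyclin, changed by -3.66 ± 0.12, and NRM1, a repressor of G1/S transcription, by -3.06 ± 0.06. Of 28 genes of G2/M and the M/G1 boundary 25 fell, led by the mitotic cyclins CLB2 (-3.68 ± 0.10) and CLB1 (-3.64 ± 0.08). SIC1, an inhibitor of cyclin-dependent kinase, and DSE4, a daughter cell glucanase, rose. Histone genes fell in 8 of 10 cases, with HTB2 at -1.46 ± 0.12.

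All 4 alpha-specific genes fell: the pheromone gene MF(ALPHA)2 by 3.09, the a-factor receptor STE3 by 2.70, the agglutinin SAG1 by 2.47 and MF(ALPHA)1 by 2.18. STE3 read 12.44, 12.17 and 12.15 in the control and 9.72, 9.57 and 9.37 with both treatments. Of 7 a-specific genes 3 rose, a share near the 41.8% of all genes, and 4 did not pass the test. Their median change of 0.28 became -0.14 after quantile normalization over S. cerevisiae probe sets. Of 10 haploid-specific genes 4 rose, again near the share of all genes, and 6 fell, beside 40.5% of all genes. FAR1, which arrests the cycle for mating, changed by -3.54 ± 0.12.

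Sphingolipid genes did not move as a block. In the first step, LCB1 and LCB2, the catalytic pair of serine palmitoyltransferase, were a little lower. LCB1 read 12.56, 12.58 and 12.59 in the control and 12.13, 12.33 and 12.32 with both treatments, a change of -0.32 ± 0.07 (limma adjusted p 0.000213). LCB2 read 12.26, 12.12 and 12.11 in the control and 11.56, 11.57 and 11.55 with both treatments, a change of -0.60 ± 0.07. Both groups were apart in each gene, though the differences were small beside those above. TSC10, the reductase of the next step, changed by -1.16 ± 0.05.

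ORM2, a regulator that holds serine palmitoyltransferase in check, rose in contrast to its paralog. ORM2 read 11.50, 11.67 and 11.57 in the control and 13.75, 13.66 and 13.67 with both treatments. Its arrays did not overlap, and the rise was 4.33-fold (2.12 ± 0.07, limma adjusted p 5.16e-15). The change was 1.36 with heat alone and 0.71 with ISP1 alone. ORM1 read 11.39, 11.29 and 11.29 in the control and 11.35, 11.30 and 11.27 with both treatments, so that the groups overlapped, and its difference of -0.01 ± 0.07 did not pass the test (adjusted p 0.872).

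Among the genes that make and break ceramide, the ceramidases YDC1 and YPC1 rose. YDC1 read 10.53, 10.55 and 10.35 in the control and 12.92, 12.85 and 12.87 with both treatments. YPC1 read 10.11, 9.97 and 10.02 in the control and 12.44, 12.37 and 12.33 with both treatments. The rises were 5.30-fold and 5.08-fold, and in both genes the treated arrays lay far above the control arrays. SUR2, the hydroxylase of sphingoid bases, fell (-1.18 ± 0.08), as did the ceramide synthase LAG1 (-0.35 ± 0.07) and the sphingolipid phospholipase ISC1 (-0.58 ± 0.05). The second ceramide synthase, LAC1, had a difference of -0.12 ± 0.09 that did not pass the test (adjusted p 0.209).

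RSB1, a membrane protein involved in export or translocation of sphingoid bases, read 10.61, 10.32 and 10.52 in the control and 11.91, 12.15 and 12.07 with both treatments. The groups were apart and the rise was 2.95-fold. With heat alone it fell (-0.41), with ISP1 alone it rose (1.43), and the level with both treatments was 1.97 ± 0.13 above that with heat. HFD1, a dehydrogenase in the breakdown of sphingoid base phosphates, rose by 1.96 ± 0.06. The kinase LCB5, which phosphorylates sphingoid bases, rose (0.87 ± 0.05), while its paralog LCB4 had a difference of -0.05 ± 0.07 that did not pass the test (adjusted p 0.471). The lyase DPL1, which cleaves the phosphates, rose (0.36 ± 0.05), and the phosphatases LCB3 and YSR3, which remove the phosphate, fell (-0.93 ± 0.05 and -0.90 ± 0.12). Of the acyl-CoA synthetases, FAA1 rose (1.40 ± 0.04) while FAA4 fell (-2.80 ± 0.09).

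Further along, AUR1 and KEI1, the subunits of inositol phosphorylceramide synthase, changed by -1.65 ± 0.06 and -1.51 ± 0.10. CSH1 and SUR1, which add mannose to that lipid, rose by 1.14 ± 0.10 and 1.01 ± 0.12. IPT1, which makes the most complex of these lipids, read 11.30, 11.28 and 11.15 in the control and 11.57, 11.66 and 11.69 with both treatments. The groups did not overlap, and its rise of 0.40 ± 0.06 compared with a change of -0.94 with heat alone and 0.69 with ISP1 alone. The elongases ELO2 and ELO3, which extend the very long chain fatty acids of ceramide, fell 4.57-fold and 4.18-fold. ELO2 read 12.64, 12.81 and 12.76 in the control and 10.51, 10.53 and 10.59 with both treatments, with no overlap. The third elongase, ELO1, changed by -0.18 ± 0.07, a call lost without control array 2 (adjusted p 0.0547) and without either array 2 or 3 of heat with ISP1 (0.0814 and 0.0623).

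Of 27 genes for sphingoid base signalling kinases and eisosomes, 21 rose and 2, SUR7 (-1.77) and TOR2 (-0.19), fell. Beside FMP45, these were led by KIN82, a flippase kinase (2.44 ± 0.16), YPK2, a kinase downstream of TORC2 (2.12 ± 0.09), and PUN1 (2.04 ± 0.10). The list's median change was 0.79.

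**Figure D4:**
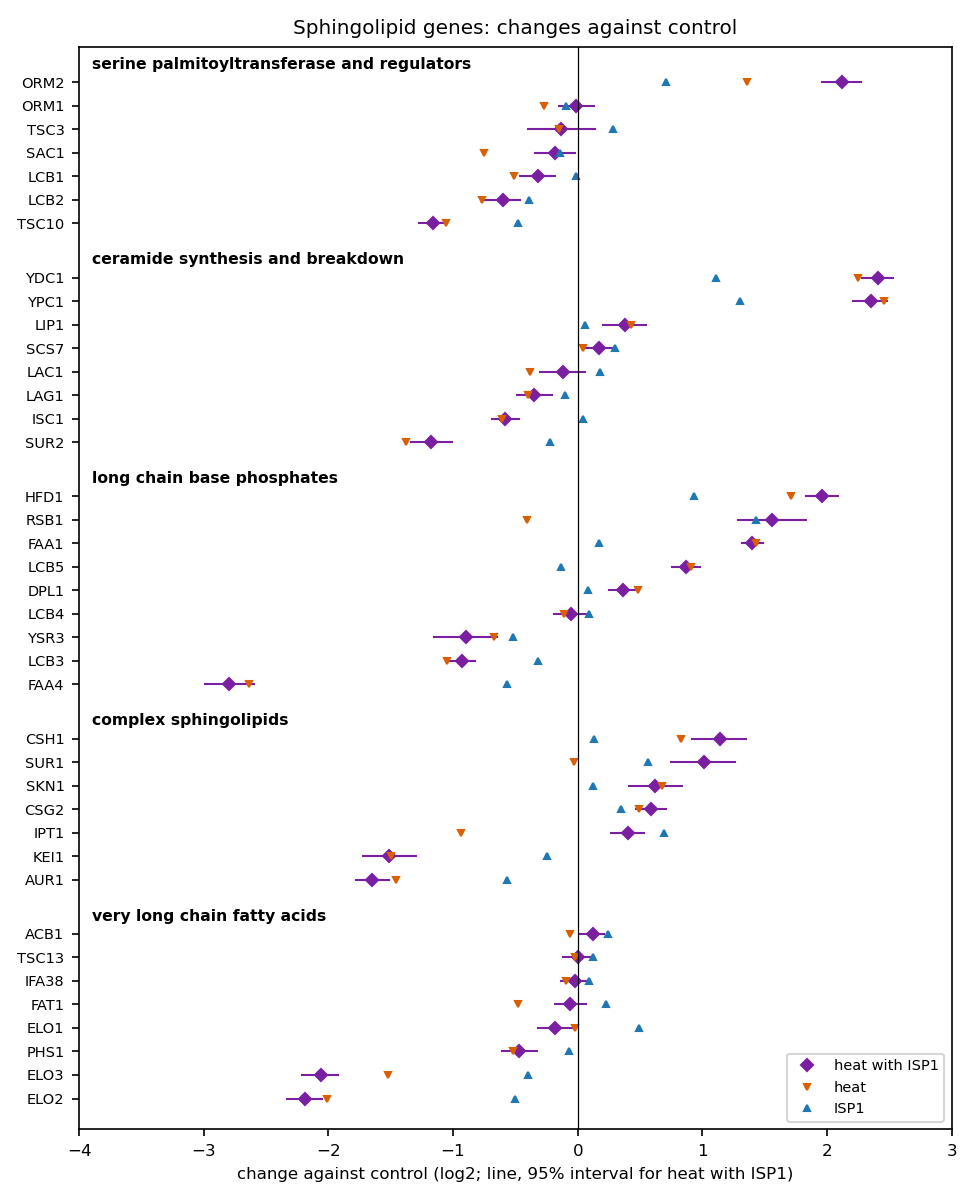
Change against control (horizontal axis, log2) of sphingolipid genes grouped by step, with symbols for heat, ISP1 and heat with ISP1 and a line for the 95% interval of heat with ISP1. ORM2 (2.12), YDC1 (2.41) and YPC1 (2.35) stand to the right, and FAA4 (-2.80) and ELO2 (-2.19) to the left.

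In other lipid pathways, ergosterol synthesis fell in 18 of 28 genes and rose in 5, beside 40.5% and 41.8% of all genes. ERG3, a desaturase, changed by -1.82 ± 0.05 and MVD1, of the mevalonate steps, by -1.30 ± 0.06. ARE2, which esterifies sterols, rose (1.66 ± 0.09). OLE1, the fatty acid desaturase, fell (-1.72 ± 0.06). Peroxisomal beta-oxidation rose in 18 of 22 genes, with a median change of 0.82. POT1, its thiolase, rose by 3.41 ± 0.25 and POX1, its first oxidase, by 2.44 ± 0.22. In phospholipid synthesis, INO1, inositol phosphate synthase, rose (1.88 ± 0.08) and URA7, CTP synthase, fell (-3.69 ± 0.12).

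Glycolysis genes rose in 11 of 20 cases and fell in 1, beside 41.8% and 40.5% of all genes, with a median change of 0.13. Hexose transporter genes rose in 8 of 13 cases and fell in 2, beside 41.8% and 40.5% of all genes. Of the risers, HXT13, HXT10 and HXT8 had control means of 3.92, 4.47 and 4.81, under the background limit of 4.84 from other-species probe sets. With both treatments their means were 4.42, 4.92 and 5.2. The hexose list's median change was 0.37 to 0.48 over the left-out arrays. Under quantile normalization over S. cerevisiae probe sets it was 0.03. HXK1 and GLK1, glucose kinases, rose (2.78 ± 0.15 and 2.37 ± 0.08) while HXK2, the isoform of glucose growth and the 1 glycolysis gene that fell, changed by -0.78. HXT5 rose, while the low-affinity transporters HXT1 (-2.54 ± 0.19) and HXT3 (-1.95 ± 0.11) fell. The cytochrome oxidase isoform COX5B rose (3.03 ± 0.08) and COX5A fell (-0.59), and among external NADH dehydrogenases NDE2 rose (4.08 ± 0.13) and NDE1 fell. Respiratory chain and ATP synthase genes rose in 25 of 39 cases and fell in 6, beside 41.8% and 40.5% of all genes. Their median change was 0.25. Citric acid cycle genes rose in 14 of 17 cases, beside 41.8% of all genes, with CIT1, citrate synthase, at 1.51 ± 0.05.

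Phosphate genes fell in 18 of 28 cases and rose in 7, beside 40.5% and 41.8% of all genes. The list's median change was -0.96, compared with -0.44 for heat alone and -0.57 for ISP1 alone. PHO5, a secreted acid phosphatase, read 12.73, 12.18 and 12.27 in the control and 8.95, 8.81 and 8.74 with both treatments. The groups were far apart and the fall was 11.8-fold. PHO84, the high-affinity phosphate transporter, read 14.17, 14.18 and 14.11 in the control and 12.81, 12.68 and 12.79 with both treatments, and fell 2.63-fold. It changed by -0.25 with heat alone and by -0.56 with ISP1 alone. PHO11, whose probe set can bind related phosphatase transcripts, fell 10.3-fold.

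Multidrug resistance genes, in a list named for the factors Pdr1 and Pdr3, rose in 16 of 23 cases and fell in 4. Of all genes 41.8% rose and 40.5% fell. The list also holds the genes of these factors, and which members they regulate was not tested. The falls were INA1 (16.1-fold), already named among the largest, and the transporters QDR2 (-1.47 ± 0.09), PDR11 (-0.79 ± 0.09) and PDR12 (-0.78 ± 0.15). RTA1, a membrane protein related to RSB1, rose by 4.09 ± 0.14 and the transporters PDR15 and TPO4 by 3.17 ± 0.15 and 3.14 ± 0.10. PDR5, the main drug efflux pump, read 13.11, 12.84 and 12.98 in the control and 13.79, 13.65 and 13.66 with both treatments, a 1.65-fold rise with no overlap. The list's median change was 0.61 with both treatments, -0.06 with heat alone and 0.57 with ISP1 alone. Cell wall genes were mixed, with 20 of 33 higher and 11 lower, beside 41.8% and 40.5% of all genes. Among them BAG7, a GTPase-activating protein for Rho1, rose by 4.88 ± 0.15.

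The level with both treatments was next compared with each single treatment, which asks where the combination lay beyond both. Heat with ISP1 differed from heat in 1784 genes (32.7%) and from ISP1 in 4206 (77.2%), all in 1 model. Genes called higher than control, heat and ISP1 numbered 505 (9.27%), and genes called lower than all of them 618 (11.3%). With array weights the higher and lower genes together numbered 1706 in place of 1123, and those apart from heat 2960. Lower genes included 62 of the 81 ribosome biogenesis genes, 23 of 30 G1/S genes, 17 of 28 G2/M and M/G1 genes and 11 of 28 phosphate genes. Higher genes included 14 of 28 autophagy genes, 8 of 22 beta-oxidation genes, 8 of 34 general stress genes and none of the 33 heat shock genes. By the test against heat, 4 of 33 heat shock genes were lower and none higher with both treatments, beside 16.3% of all genes lower and 16.5% higher. For the other 29 the test did not pass, which does not show that they were equal.

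Among the highest net rises in the set of 505, BDH2 lay 1.22 ± 0.18 above heat and 2.31 ± 0.18 above ISP1. YPT53 read 6.10, 5.98 and 5.75 in the control and 11.13, 11.32 and 11.26 with both treatments, and lay 1.40 ± 0.16 above heat and 2.35 ± 0.16 above ISP1. NQM1, a transaldolase paralog, lay 0.69 ± 0.15 above heat, and PHM7 0.64 ± 0.17. FMP45 and RTN2 exceeded heat by less, 0.33 ± 0.11 and 0.34 ± 0.10. On the falling side PHO3 read 12.45, 12.39 and 12.15 in the control and 8.68, 8.36 and 8.36 with both treatments. It changed by -1.42 ± 0.11 against heat and by -1.46 ± 0.11 against ISP1. RNR1 changed by -0.83 ± 0.08 against heat and DBP2 by -0.89 ± 0.17.

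The interaction tests whether the net change equals the sum of the single changes on the log2 scale, and it was called in 2231 genes (40.9%), of which 1188 (21.8%) lay above the sum and 1043 (19.1%) below it. It reached 2-fold above the sum in 53 genes (0.973%) and below it in 218 (4.0%). Of the 2280 genes with a net rise, the interaction was called below the sum in 815 and above it in 163, and it was not called in 1302. Of the 2206 genes with a net fall, it was called above the sum in 875 and below it in 137, and it was not called in 1194. For a gene that fell, a value above the sum is a fall smaller than the sum. Among the genes farthest below the sum were some of the large risers: CTT1 by 3.04, GPH1 by 3.07, EGO4 and TMA10 by 3.02 each. For POT1 (interaction 0.22, adjusted p 0.642) and ORM2 (0.05, adjusted p 0.741) it did not pass the test. CTT1 changed by 4.85 with heat alone, 3.17 with ISP1 alone and 4.98 with both. TMA10 changed by 5.43, 3.02 and 5.43 in the same order. The highest value on any YPD array was 15.07, and the part of the upper end of the scale in these values was not tested. SPS100, a spore wall protein, was among the 163 that rose beyond the sum. It read 8.17, 7.28 and 7.40 in the control and 10.89, 11.53 and 11.41 with both treatments, and its rise of 3.66 ± 0.21 exceeded the sum of 1.39 with heat and 0.47 with ISP1 by 1.80 ± 0.29 (limma adjusted p 8.7e-05).

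Some genes that moved with a single treatment ended near the control level with both. ARG3, ornithine carbamoyltransferase, read 8.52, 9.59 and 9.87 in the control and 8.67, 9.57 and 9.58 with both treatments. The groups overlapped and array 1 was the lowest in each. Its net difference of -0.05 ± 0.30 did not pass the test (adjusted p 0.881), while it rose by 3.20 ± 0.30 with ISP1 alone. ARG1, argininosuccinate synthase, also overlapped between the groups, with a net difference of -0.03 ± 0.34, a change of -1.22 with heat alone and 2.38 with ISP1 alone. Of 59 amino acid synthesis genes 36 fell and 9 rose, beside 40.5% and 41.8% of all genes. The list's median change was -0.45, compared with -0.72 with heat alone and 0.61 with ISP1 alone. LEU9, LYS4 and ILV3 fell most (-2.80 ± 0.14, -2.54 ± 0.13 and -2.05 ± 0.12).

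Heat alone and ISP1 alone moved 349 genes (6.4%) in opposite directions, in comparisons that share the control arrays and in which 80.6% and 61.1% of genes were called. Of the 195 that were higher with heat and lower with ISP1, 134 were higher than control with both treatments, 16 were lower and 45 were not called. Of the 154 that were lower with heat and higher with ISP1, 96 were lower, 15 higher and 43 not called. LYS2, of lysine synthesis, changed by -1.66 with heat, 1.21 with ISP1 and -1.11 ± 0.15 with both.

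**Figure D5:**
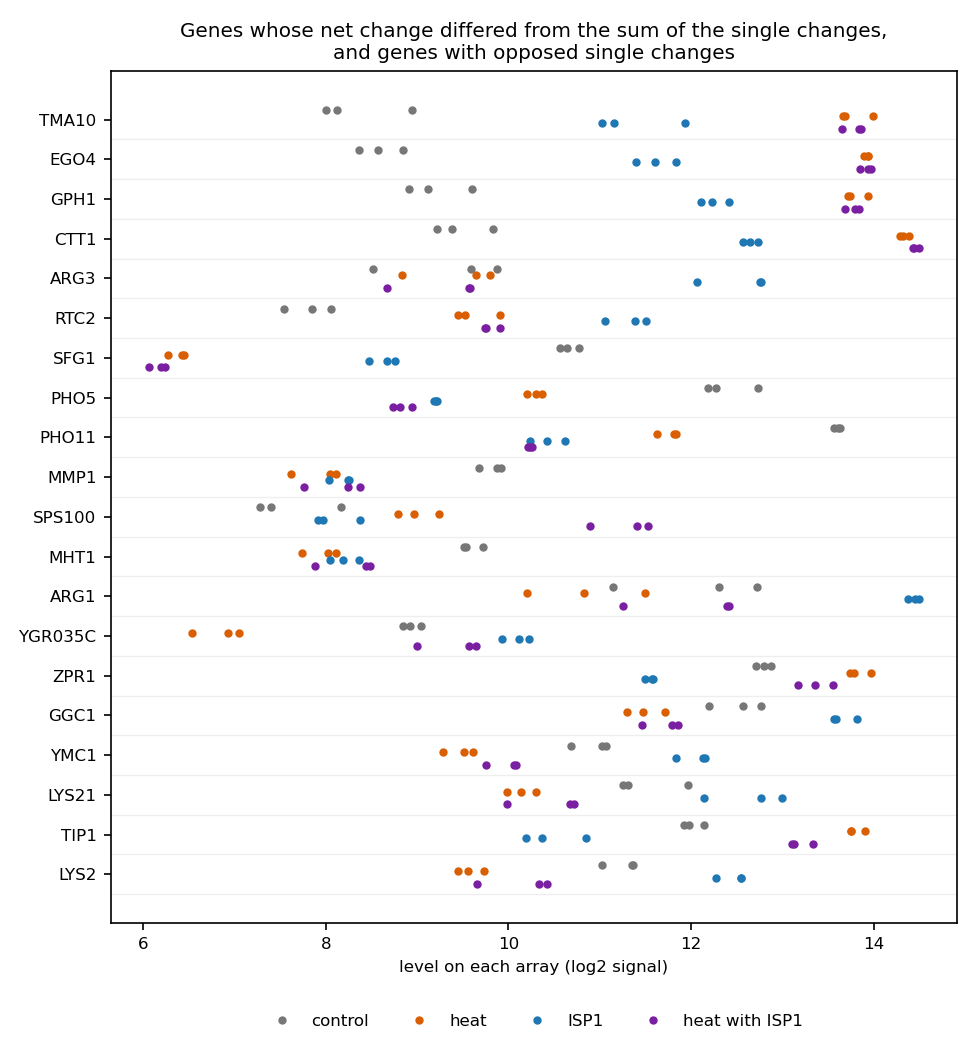
Level on each array (horizontal axis, log2 signal) of genes with the largest interaction and of genes with opposed single changes, with 1 symbol per array for the control, heat, ISP1 and heat with ISP1 groups. The ARG3 arrays with both treatments (8.67 to 9.58) overlap its control arrays (8.52 to 9.87), and those of CTT1 (14.43 to 14.49) lie above its control arrays (9.22 to 9.83).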

How the data were processed

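Total RNA was extracted with phenol and hybridized as biotin-labelled target, per the labels' protocols. Each deposited column holds the log2 signal of 1 array, with affy and RMA named in the submitters' processing notes and no further step given in the sources used here. RMA's quantile step would hide a change shared by most genes. Groups came from titles.

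The table held 10928 probe sets, of which 5498 carried 1 S. cerevisiae gene, 1746 a gene of another species and 1 several genes, 213 were controls and 3470 had no name here. The brightest probe set was used for each of 47 genes with several, leaving 5449 genes. The background limit was 4.84, the 95th percentile over other-species probe sets, and 5357 genes exceeded it. Symbols were updated for 12 genes.

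All contrasts came from 1 group-means model of 21 arrays (limma 3.58.1, R 4.3.3), which left 14 residual degrees of freedom. P-values were adjusted by Benjamini-Hochberg over all genes, with calls at 0.05. For 3 arrays against 3 the smallest exact permutation p is 0.1. Standard errors come from this model. In simulated data 200 of 5449 genes were changed. There a change of 1 was recovered in 100% of genes for heat with ISP1 against control and in 99% for the interaction. A change of 0.5 was recovered in 85% and 62%. In the real data 82.3% and 40.9% of genes were called, a far larger share, so these rates do not give the power of the reported calls.

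Named genes were the 12 largest rises and falls without overlap, up to 4 members per list with the largest change, up to 6 per direction beyond both single treatments, per sign of interaction and with opposed single changes (nearest 0 and largest), and control genes. Other list members named in the text were chosen after their values were seen. The members and the 44 lists were chosen with earlier results of these data known.

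Replicate numbers come from titles. Deviations of same-numbered arrays correlated by 0.308, 0.0736 and 0.247 for heat with ISP1 and control. The range was 0.172 to 0.433 for heat with ISP1 and heat, and 0.132 to 0.350 for heat with ISP1 and ISP1. All of these were positive, and the labels do not say whether the numbers pair the arrays. The model reported treats the arrays as unpaired in every comparison. Alternatives were other sets of arrays, a replicate block, normalization, centring, array weights, filters and leaving out each array. Promoter sequences were not analysed here.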

Additional observations from a re-analysis of the deposited data

Results flagged for a closer look

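Heat and ISP1 together did not give the sum of their single changes in 1188 genes that lay above the sum on the log2 scale and in 1043 that lay below it, by limma's interaction test. Above the sum were MMP1, a transporter of S-methylmethionine (interaction 1.85), SFG1 (1.81), SPS100 (1.80), PHO5 (1.73), MHT1, which uses S-methylmethionine to make methionine (1.69), and PHO11 (1.65). Of these, SPS100 rose with both treatments and the others fell by less than the sum. Below it were ARG3 (-3.35), RTC2, a vacuolar amino acid transporter (-3.33), GPH1 (-3.07), CTT1 (-3.04), EGO4 (-3.02) and TMA10 (-3.02). MMP1 read 9.87, 9.92 and 9.68 in the control and 7.76, 8.24 and 8.38 with both treatments, and changed by -1.90 with heat, -1.65 with ISP1 and -1.69 with both. RTC2 read 7.54, 7.85 and 8.06 in the control and 9.91, 9.76 and 9.74 with both treatments, and changed by 1.81, 3.50 and 1.99 in the same order.

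Probe sets that carry no gene name here also carried signal: 55 of 3470 were at least 2-fold higher with both treatments and 18 at least 2-fold lower. Of the 1746 other-species probe sets, 0 were at least 2-fold higher or lower, although 41 were called higher and 145 lower in the same fit.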

How the results depend on the processing

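The 9 counts of called genes moved by less than 1.5 times under every alternative run except array weights, which gave 1706 genes beyond both single treatments (1123 in the model reported) and 2960 apart from heat (1784). The array weights stopped before their convergence tolerance, and the cause of the difference was not tested. Leaving out 1 array gave 4360 to 4392 called genes for heat with ISP1 against control, 828 to 1137 beyond both single treatments, 1360 to 1819 apart from heat and 1966 to 2316 interactions. Median centring gave 2361 higher and 2175 lower genes. Of 204 named genes, 196 kept their direction and their side of the threshold. The others lay near 0 or near the threshold in the model reported. Among these, the a-specific gene MFA2 had a difference of -0.45 that did not pass. It passed under several alternatives, and was -1.03 under quantile normalization over S. cerevisiae probe sets (limma adjusted p 0.00281). The median change of the a-specific list reversed to -0.14 under quantile normalization over S. cerevisiae probe sets. ARG1 was 0.10 with array weights and ranged from -0.49 to 0.35 over the left-out arrays. ARG3 was 0.02 under quantile normalization and 0.03 with array weights, with a range of -0.45 to 0.25, and ORM1 was 0.01 under median centring, with a range of -0.03 to 0.02. YGR035C, whose difference of 0.46 did not pass, passed under 7 of its alternatives, and ACT1 fell short of the threshold under quantile normalization (adjusted p 0.101).

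With the replicate number as a block, 4584 genes were called against control, 1944 against heat and 4288 against ISP1, and 2398 interactions. Of ribosome biogenesis genes 71 in place of 62 then lay below both single treatments, and 5 heat shock genes in place of 4 were lower than with heat. Against heat, the block removed the calls of COX5B (limma adjusted p 0.0962), LCB1 (0.0554), YDC1 (0.0995), AUR1 (0.0665) and LAC1 (0.0579). It added those of 12 other named genes. Signal near background limits some sporulation and hexose transporter genes and, of the a-specific genes, ASG7 (control mean 5.24). All 7 a-specific genes exceeded the background limit. Their control array medians of 6.52 to 7.25 were low beside the 10.32 to 10.33 over all genes.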

Other observations

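Regulators of stress and nutrient responses rose in 25 of 37 cases with both treatments and fell in 9, beside 41.8% and 40.5% of all genes. The list's median change was 0.75. CAT8 and ADR1, activators of genes for growth without glucose, rose by 2.96 ± 0.12 and 2.86 ± 0.20, and the kinase YAK1, which slows growth, by 2.53 ± 0.11. TOD6, a repressor of ribosome biogenesis genes, changed by -2.76 ± 0.15. Genes of the glyoxylate cycle and gluconeogenesis rose in 10 of 11 cases, with JEN1, a lactate transporter, at 1.82 ± 0.12 with both treatments, 0.70 with heat alone and 1.46 with ISP1 alone.

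Iron genes were called higher in 12 of 25 cases and lower in 8, beside 41.8% and 40.5% of all genes. TIS11, which degrades transcripts of iron-using proteins, rose by 2.28 ± 0.15, and FIT2, a cell wall protein that retains siderophores, by 2.21 ± 0.21, while FTR1, the iron permease, changed by -2.20 ± 0.10. Sulfur genes, with 12 of 23 lower, 4 higher and a median change of -0.27, stood beside 40.5% of all genes that fell. They included SAM1, which makes S-adenosylmethionine, at -2.70 ± 0.11, whereas SUL1, a sulfate permease, rose by 1.66 ± 0.19. Amino acid and base permeases were called higher in 10 and lower in 12 of 24 cases, shares near those of all genes, with AGP2 at 2.14 ± 0.14 and FUR4, the uracil permease, at -1.77 ± 0.14. Sporulation genes rose in 12 of 20 cases and fell in 3, beside 41.8% and 40.5% of all genes. Among them SPS4 changed by -2.74 ± 0.18 and the recombinase DMC1 by 1.62 ± 0.09. Of the risers, DIT2 and SPS2 had control means of 4.48 and 4.53, under the background limit of 4.84. With both treatments their means were 5.2 and 5.18.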
